A study of Homo sapiens with 3 samples.

Results

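The angiopoietin ligand genes ANGPT1 and ANGPT2, the receptor genes TEK and TIE1, and PTPRB, which encodes a phosphatase of TEK, were followed in single cells of human blood vessel organoids. The 5 genes were taken by symbol from the 33538 genes of the count tables, and all 5 were found. Such organoids form a vessel network of endothelial and mural cells embedded in mesenchyme. The cells were H1, a human embryonic stem line in wide use, with a doxycycline-inducible NEUROD1-P2A-GFP cassette integrated by a PiggyBac transposon. NEUROD1 is a proneural transcription factor. Each of 3 groups had 1 library: day 45 organoids with no NEUROD1 induction, with 15 days of it and with 45 days of it. Doxycycline was given at 1 µg/ml in the induced groups, and every group received BDNF and NT-3 from day 15. When the 15 days of induction fell, and whether the line is 1 clone, is not in the labels. Because a group is a single library, made from 5 to 6 pooled organoids, the groups were not tested against each other and no p-value is given.

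ANGPT1 is the agonist of the receptor tyrosine kinase TEK, also called TIE2, and in vessels it comes mostly from the cells around the endothelium, where it favours quiescence and tight junctions. ANGPT2 acts on the same receptor as a context-dependent antagonist or weak agonist, and is known from endothelium that is remodelling. TIE1 is an orphan-type receptor that pairs with TEK and modulates its signal, and PTPRB, also called VE-PTP, is an endothelial phosphatase that removes phosphate from TEK.

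The libraries held 10232 barcodes with no induction, 5962 after 15 days and 10765 after 45 days, with 59879923, 49488425 and 64171327 UMIs, each UMI standing for 1 captured transcript. After filtering, 8230, 5078 and 8900 cells were left, with medians of 5137.5, 7271.5 and 5546 UMIs. Of the barcodes, 61 occurred in more than 1 library, 41 of them among kept cells. For none, 15 and 45 days NEUROD1 stood at 1.52, 1.47 and 43.6 UMIs per 1000000 (CPM), so the library labelled 15 days was at the uninduced level for NEUROD1. Neuron-like cells were 0 of 8230 with no induction, which allows up to 0.0365%, 300 (5.91%) after 15 days and 301 (3.38%) after 45 days. Libraries are named by their labels throughout. Transcripts of the cassette may end outside the annotated gene and then go uncounted. Cells were clustered with the 5 genes left out, and clusters were named from marker lists that hold none of the 5. The endothelial-like cells were 1 cluster, in which 14 of 15 endothelial markers stood out, of 444, 324 and 232 cells for none, 15 and 45 days. Their share of all kept cells was 5.39% (4.92 to 5.91), 6.38% (5.72 to 7.09) and 2.61% (2.29 to 2.96). Mural-like cells, which resemble pericytes and vascular smooth muscle, formed clusters 13 and 15, with 643, 446 and 770 cells. Of 14 mural markers 13 stood out in cluster 15 but only 6 in cluster 13. The 12 mesenchymal-like clusters held 5744, 3097 and 6398 cells. In the class levels CPM are UMIs of the gene per 1000000 UMIs of all cells of that class and library. Intervals throughout are 95% counting intervals, which leave out the difference between organoids and between cells.

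TEK, TIE1 and PTPRB were endothelial transcripts. TEK (ENSG00000120156) lies on chr9:27109141-27230175 (GRCh38, plus strand, 23 exons), TIE1 (ENSG00000066056) on chr1:43300993-43323108 (plus strand, 23 exons) and PTPRB (ENSG00000127329) on chr12:70515866-70637440 (minus strand, 34 exons). PTPRB overlaps 2 antisense genes that were counted too, AC025569.1 and AC083809.1. The windows of 250 bases that end just before RefSeq's annotated starts of TEK and TIE1 are printed because these 2 receptor genes shared a cell type but not a course across the libraries. TEK has a pair of RefSeq starts, and its windows overlap. Both lie downstream of the GENCODE start given above, so the whole second TEK window, with its matches, and the end of the first are inside the GENCODE gene. Capitals mark AGGAA, which holds the shorter GGAA core bound by ETS factors, or TTCCT, the same letters on the other strand (GRCh38.p14, plus strand, 5′ to 3′). A GGAA or TTCC without the further A or T is left unmarked and uncounted.
TEK chr9:27108975-27109224: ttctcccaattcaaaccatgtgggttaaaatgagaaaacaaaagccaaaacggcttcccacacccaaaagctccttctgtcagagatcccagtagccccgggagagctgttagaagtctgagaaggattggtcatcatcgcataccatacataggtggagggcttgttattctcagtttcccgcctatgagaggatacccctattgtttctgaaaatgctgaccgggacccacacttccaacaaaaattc
TEK chr9:27109200-27109449: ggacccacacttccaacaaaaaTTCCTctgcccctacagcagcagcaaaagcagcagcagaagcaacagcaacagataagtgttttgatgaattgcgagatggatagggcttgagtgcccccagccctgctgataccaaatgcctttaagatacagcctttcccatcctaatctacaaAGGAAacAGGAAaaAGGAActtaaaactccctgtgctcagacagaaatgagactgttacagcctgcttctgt
TIE1 chr1:43300732-43300981: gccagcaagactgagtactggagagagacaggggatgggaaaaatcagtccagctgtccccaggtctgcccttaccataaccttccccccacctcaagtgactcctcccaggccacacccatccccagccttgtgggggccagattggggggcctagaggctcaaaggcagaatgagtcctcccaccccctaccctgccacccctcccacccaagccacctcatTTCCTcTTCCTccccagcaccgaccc
The first TEK window held 0 such matches, the second held 4 and the TIE1 window held 2. AGGAA is common: 56.8% of the 35116 RefSeq windows of that length held it on either strand, so a match describes the letters and not a site.

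**Figure D1:**
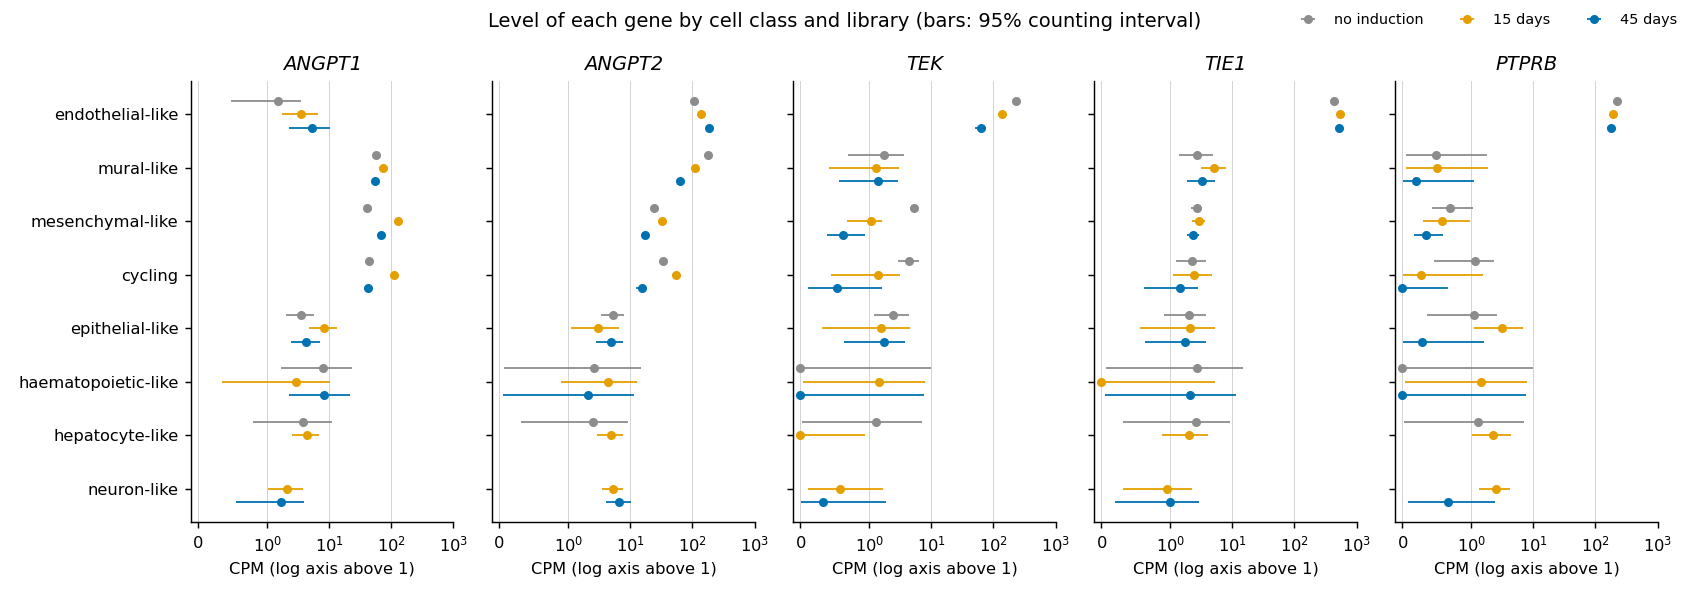
CPM of each gene (horizontal, log axis above 1) in each cell class (vertical) and library (grey no induction, orange 15 days, blue 45 days), with 95% counting intervals; classes of under 20 cells are left out. TEK, TIE1 and PTPRB stand high in endothelial-like cells alone, ANGPT1 in mural-like, mesenchymal-like and cycling cells, and ANGPT2 in all 4 of these classes.

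TEK was lower in endothelial-like cells of the libraries labelled 15 and 45 days than in the uninduced one. It was counted at 228 CPM (212 to 245) in endothelial-like cells with no induction, 135 CPM (122 to 149.7) after 15 days and 63.4 CPM (51.4 to 77.4) after 45 days. The 3 intervals do not overlap, and the uninduced library was the highest. At 45 days against none TEK was 3.60-fold lower (2.91 to 4.49), a log2 ratio of -1.77 with 5 CPM added to each side. It ranked 26th from the lowest of 9463 genes that reached 10 CPM in either library. At 15 days against none it was 1.69-fold lower (1.49 to 1.91), and at 45 against 15 days 2.13-fold lower (1.703 to 2.70).

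The share of endothelial-like cells with a TEK UMI showed the same order. With every cell thinned to 2000 UMIs it was 37.8% (32.9 to 42.8) of 392 cells with no induction, 19.8% (15.4 to 24.8) of 298 after 15 days and 10.6% (6.58 to 15.9) of 189 after 45 days. Thinning left out 52, 26 and 43 shallower cells, and the unthinned shares were 62.8%, 48.8% and 26.3%. In mural-like cells the thinned share was 0.470%, 0.232% and 0 of 722 cells, which allows up to 0.416% by a limit of 3 cells for a count of 0. Median depths there were 5999, 8331.5 and 6132.5 UMIs, against 6781.5, 8251.5 and 5750.5 in endothelial-like cells. The endothelial-like shares were thus above the mural-like ones in each library.

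Over all endothelial-like cells TIE1 was higher where TEK was lower, and PTPRB was lower by less than TEK. The endothelial-like subclusters, given below, were mixed for TIE1 at 45 days and for PTPRB at 15 and 45 days. TIE1 was counted at 442 CPM (419 to 464) with no induction, 548 CPM (521 to 576) after 15 days and 520.0 CPM (484 to 557) after 45 days. It was 1.18-fold higher (1.08 to 1.28) at 45 days against none and 1.24-fold higher (1.15 to 1.33) at 15 days against none, and the intervals of 15 and 45 days overlapped. PTPRB was counted at 221 CPM (205 to 237), 194 CPM (178 to 211) and 177 CPM (156 to 199), in the same order. It was 1.25-fold lower (1.09 to 1.44) at 45 days against none and 1.14-fold lower (1.02 to 1.27) at 15 days against none, the level at 15 days overlapped both others, and the thinned shares of 32.7%, 30.2% and 30.2% were nearly equal. The thinned share for TIE1 was 58.2%, 64.4% and 64.6%, and in mural-like cells it was 0.470%, 0.464% and 0.554%.

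Of the 4 genes of the set that reached 10 CPM in endothelial-like cells, 1 (TEK) was at least 2-fold lower at 45 days against none, where 1.05% of all genes were, and 0 were at least 2-fold higher, where 1.06% were. At 15 days against none 0 of 4 were lower and 0 of 4 higher by that much, where 0.594% and 0.828% of all genes were. At 45 against 15 days 1 of 4 (TEK) was lower and 0 of 4 higher, where 0.63% and 0.556% of all genes were. That count for TEK was 0 with doublets kept, and 0 without endothelial-like subclusters 1 and 4 or 0, 1 and 4. The median log2 ratio of the 4 genes at 45 days against none was -0.04, against 0.05 for all genes. The median for the 15 endothelial markers was 0.12, and 1 of them, VWF, the clotting factor stored with ANGPT2 in endothelial granules, was at least 2-fold lower, at 20.3 CPM at 45 days against 83.8 CPM without induction. KDR, the main VEGF receptor, was at 901 CPM at 45 days against 1160.2 CPM without induction, and CDH5, the cadherin of endothelial junctions, at 719 against 747 CPM.

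Outside the endothelial-like cells TEK, TIE1 and PTPRB were scarce. Endothelial-like cells held 78.3%, 90.2% and 71.3% of all TEK UMIs for none, 15 and 45 days, 92.5%, 93.3% and 87.3% of TIE1 and 95.3%, 92.3% and 94.1% of PTPRB. In the epithelial-like, haematopoietic-like, hepatocyte-like and neuron-like cells the highest levels were 2.44 CPM for TEK, 2.65 CPM for TIE1 and 3.08 CPM for PTPRB. One mesenchymal-like cluster stood apart. Cluster 1, led by COL15A1 and DLK1 and held mostly by the uninduced library, had 98 TEK UMIs in its 455 uninduced cells, with a UMI in 68 of them (14.9%, 11.8 to 18.6). Its level of 17.4 CPM (14.1 to 21.2) was 7.60% of the endothelial-like level. TIE1 in that cluster was at 0.321% and PTPRB at 0.562% of theirs, the median of 15 endothelial markers was 0.932%, and 14 of the 15 were below TEK, the exception being FLT1 at 12.6%. At 45 days the cluster had 30 cells and 2 TEK UMIs, too few to place it.

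**Figure D2:**
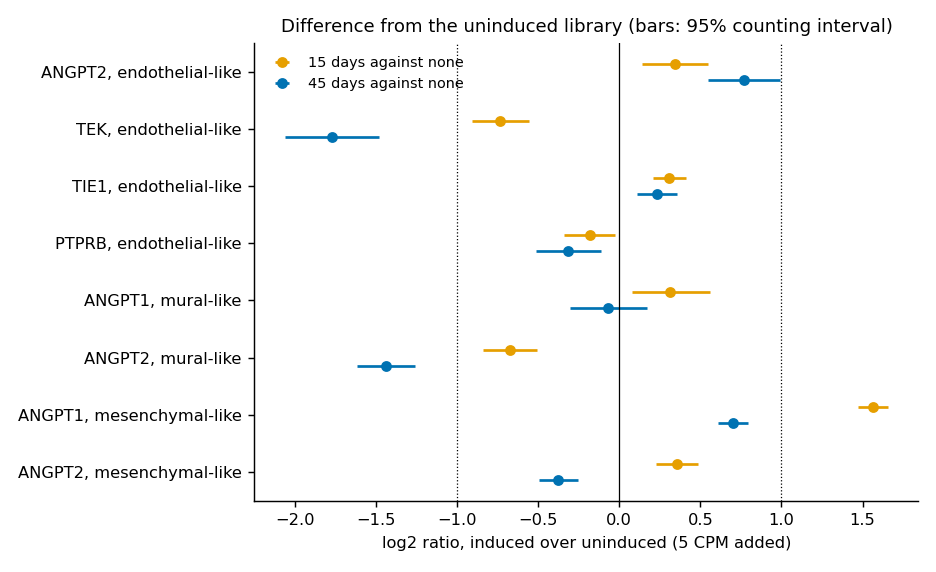
Log2 ratio of CPM (horizontal, 5 CPM added to each side) of 15 days (orange) and 45 days (blue) of induction over no induction, for each gene and class (vertical), with 95% counting intervals; dotted lines mark 2-fold. TEK in endothelial-like cells and ANGPT2 in mural-like cells at 45 days lie left of the lower line, ANGPT1 in mesenchymal-like cells at 15 days lies right of the upper one, and ANGPT2 in endothelial-like cells lies right of 0.

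The ligand genes both lie on chromosome 8, ANGPT1 (ENSG00000154188) at 107249482 to 107498055 (minus strand, 9 exons) and ANGPT2 (ENSG00000091879) at 6499651 to 6563409 (minus strand, 9 exons), within MCPH1 on the other strand (GRCh38). ANGPT1 was a transcript of mesenchymal-like, cycling and mural-like cells. Mesenchymal-like cells held 70.4%, 79.5% and 81.8% of its UMIs for none, 15 and 45 days, cycling cells 15.2%, 11.1% and 7.85%, and mural-like cells 12.9%, 7.83% and 9.18%. In endothelial-like cells it had 5, 10 and 8 UMIs, or 1.48, 3.57 and 5.23 CPM, which was 3.72%, 2.80% and 7.70% of the mesenchymal-like level. The median of 12 mesenchymal markers stood there at 5.51%, 2.47% and 7.74% of its own mesenchymal-like level, so ANGPT1 stood close to genes that endothelium should lack. In epithelial-like, haematopoietic-like, hepatocyte-like and neuron-like cells ANGPT1 was between 1.67 and 8.33 CPM.

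ANGPT1 was highest in mesenchymal-like cells of the library labelled 15 days. There it was counted at 39.8 CPM (37.6 to 42.1) with no induction, 128 CPM (123 to 132) after 15 days and 67.9 CPM (65.2 to 70.7) after 45 days, with no overlap. At 15 days against none it was 3.21-fold higher (3.00 to 3.43), a log2 ratio of 1.57 and rank 45 from the highest of 8798 genes, and 1.71-fold higher (1.59 to 1.83) at 45 days against none. Of the 2 genes of the set that reached 10 CPM in mesenchymal-like cells, 1 (ANGPT1) was at least 2-fold higher at 15 days against none, where 2.28% of all genes were. The median log2 ratio of all genes in that comparison was 0.19, so ratios there sit on a shifted centre. The 12 mesenchymal markers had a median of -1.49 in the same comparison, so the class differed in its own markers between these libraries, and the part of that in the result was not tested. Thinned to 2000 UMIs, 21.2% (19.7 to 22.7) of mesenchymal-like cells had an ANGPT1 UMI at 15 days, against 7.64% (6.95 to 8.37) without induction, and 11.6% (10.8 to 12.4) had one at 45 days. In endothelial-like cells, for none, 15 and 45 days, the thinned share was 0 of 392 cells, which allows up to 0.765%, then 0.671% and 1.59%, at the median depths given above, against 4733.5, 6885 and 5310 UMIs in mesenchymal-like cells.

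Different clusters held most of the mesenchymal-like cells in the 3 libraries: clusters 5, 6 and 9 with no induction, clusters 4 and 10 after 15 days and clusters 4, 16 and 2 after 45 days. Within clusters, ANGPT1 was higher at 15 days against none in 8 of the 8 that had 20 cells in both libraries, with the interval above 1 in 5, and folds of 1.16 to 4.66. Against none, 45 days was higher in 11 of 12, with the interval above 1 in 3, and folds of 1.04 to 1.96. The exception was cluster 1, with 0 ANGPT1 UMIs in its 30 cells at 45 days against 29 UMIs (5.14 CPM) without induction. By a limit of 3 UMIs for a count of 0 its fold was at most 1.59, so its direction is not known. The class fold at 15 days, 3.21, was above the median cluster fold of 1.65. The level was highest in cluster 4, led by MEOX2 and CLDN11, at 94.4, 193 and 128 CPM for none, 15 and 45 days, and the highest fold was in cluster 16, led by LHX9 and LHX2, at 120.3 CPM at 15 days against 25.8 CPM without induction. At 45 days cluster 16 was at 28.6 CPM.

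In mural-like cells ANGPT1 differed less. It was at 57.1 CPM (49.999 to 65.0) with no induction, 72.3 CPM (64.2 to 81.3) after 15 days and 54.3 CPM (48.0 to 61.2) after 45 days, and only the intervals of 15 and 45 days did not overlap. The sign of 15 days against none turned with at least 2000 UMIs per cell. Cycling cells had 43.8, 109.8 and 41.6 CPM, the same order as mural-like cells. Without induction mural-like cells were above cycling cells and mesenchymal-like cells, the last pair overlapping, while at 15 and 45 days mesenchymal-like cells were the highest.

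ANGPT2 came from endothelial-like, mural-like and mesenchymal-like cells at once. Endothelial-like cells held 17.5%, 21.5% and 21.4% of its UMIs for none, 15 and 45 days, mural-like cells 34.9%, 24.2% and 23.5%, and mesenchymal-like cells 36.3%, 40.1% and 45.9%. The order of the classes by level was not the same in each library: without induction mural-like cells were highest, and at 15 and 45 days endothelial-like cells were.

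**Figure D3:**
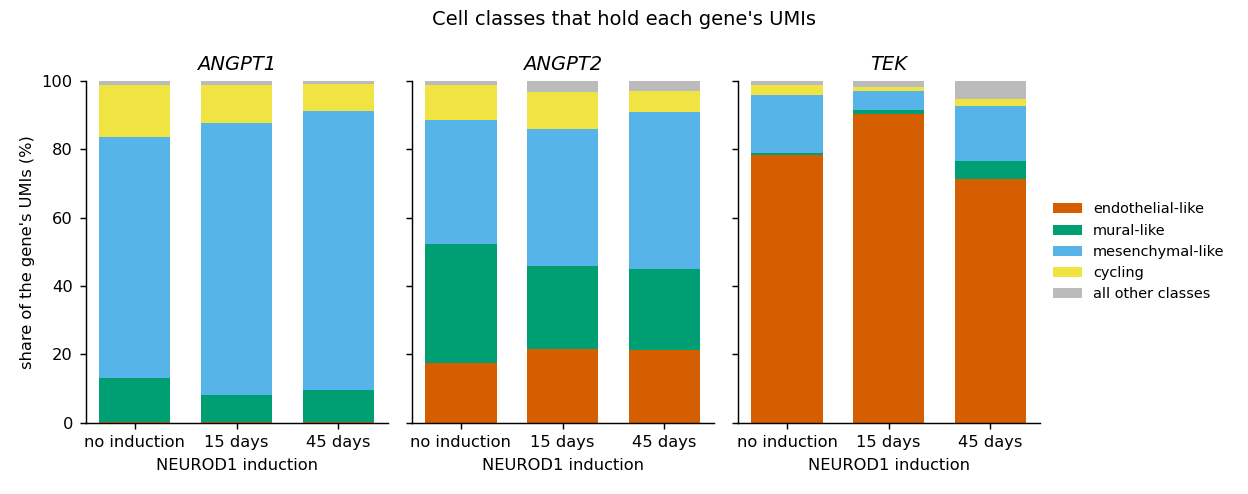
Share of each gene's UMIs (vertical, percent) that came from each cell class, for no induction, 15 days and 45 days (left to right), for ANGPT1, ANGPT2 and TEK. Mesenchymal-like cells hold most ANGPT1 (70.4% to 81.8%), endothelial-like cells most TEK (71.3% to 90.2%), and ANGPT2 is divided, with 23.5% in mural-like cells at 45 days against 34.9% without induction.

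In mural-like cells ANGPT2 was at 180.1 CPM (167 to 194) with no induction, 111 CPM (101 to 122) after 15 days and 63.3 CPM (56.5 to 70.7) after 45 days, with no overlap. At 45 days against none it was 2.84-fold lower (2.49 to 3.26), a log2 ratio of -1.44 and rank 18 from the lowest of 8637 genes, against a median of 0.16 over all genes. Of the 2 genes of the set measured there, 1 (ANGPT2) was at least 2-fold lower, where 0.475% of all genes were. The thinned share of mural-like cells with an ANGPT2 UMI was 27.1% (23.7 to 30.7), 15.8% (12.5 to 19.6) and 9.003% (7.02 to 11.3), against 1.13%, 0 of 223 cells (up to 1.35%) and 1.04% in epithelial-like cells, at median depths of 7346, 7288 and 6090 UMIs. In epithelial-like, haematopoietic-like, hepatocyte-like and neuron-like cells ANGPT2 was between 2.08 and 6.68 CPM.

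Both mural-like clusters showed this order, with 384, 113 and 312 cells in cluster 13 and 259, 333 and 458 in cluster 15. Cluster 13, led by HES5, FAM20A and COL5A3, was at 222 CPM (203 to 242), 163 CPM (136 to 193) and 80.6 CPM (67.8 to 95.2). ANGPT2 itself was among the leading genes of cluster 13, although it was left out of the clustering. That cluster, with 6 of 14 mural markers, held 495 of the 725 ANGPT2 UMIs of uninduced mural-like cells. Cluster 15, led by FABP4 and holding MYH11 and ABCC9, was at 128 CPM (112 to 146), 97.5 CPM (86.8 to 109.1) and 54.2 CPM (46.5 to 62.8). Among the 5 mural-like subclusters with at least 10 cells in both libraries, ANGPT2 was lower at 45 days against none in 5, with the interval below 1 in 4 and folds of 0.275 to 0.697. The interval spanned 1 in the subcluster led by the hypoxia genes ANKRD37 and STC1. The mural-like cells sat in different subclusters in the 3 libraries. The largest uninduced one, subcluster 0, was 56.8%, 12.6% and 18.2% of them for none, 15 and 45 days, and subcluster 4 was 0.467%, 11.0% and 18.7%. Subcluster 0 met 0 of 7 pericyte, 0 of 8 smooth muscle and 4 of 12 mesenchymal markers. Its fold was smaller than that of the class, 1.67-fold lower (1.36 to 2.06), at 136 CPM at 45 days against 227 CPM without induction. At 15 days against none ANGPT2 was lower in 4 of the 5 subclusters, with the interval below 1 in 1. Subcluster 0 was the other, at 250 against 227 CPM, a ratio of 1.10 (0.885 to 1.35). Of 14 mural markers, ACTA2 and TAGLN, of the contractile apparatus, were at least 2-fold lower at 45 days against none, and the median of the 14 was 0.29. Mesenchymal markers summed to 5277, 4466 and 4402 CPM in mural-like cells, with 12 of 12 detected in each library, and their part in the result was not tested.

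Over all endothelial-like cells ANGPT2 was higher in the libraries labelled 15 and 45 days, while the subclusters, given below, were mixed. It was at 108 CPM (97.3 to 119.8) with no induction, 139 CPM (125 to 153) after 15 days and 188 CPM (167 to 211) after 45 days, with no overlap. It was 1.74-fold higher (1.48 to 2.03) at 45 days against none, a log2 ratio of 0.77, and 1.28-fold higher (1.11 to 1.48) at 15 days against none. The thinned share of cells with a UMI was 15.6% (12.1 to 19.5), 20.1% (15.7 to 25.1) and 28.04% (21.8 to 35.0). Mesenchymal-like cells were lower, at 23.99 CPM (22.3 to 25.8), 32.0 CPM (29.7 to 34.5) and 17.3 CPM (15.98 to 18.7) in the same order, and the sign of 15 days against none turned there with at least 2000 UMIs per cell.

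The endothelial-like cells divided into 7 subclusters, and their shares differed between the libraries. Subcluster 0, with STAB2, APLNR and NR2F2 among its leading genes, met 6 of 10 venous or lymphatic markers and 4 of 12 mesenchymal markers, and made up 27.9%, 12.3% and 8.19% of the cells for none, 15 and 45 days. Subcluster 2, with PGF and GPC4 among its leading genes, made up 14.9%, 35.8% and 44.0%. Subcluster 3, led by TFF3 and FOXA1, made up 28.2%, 6.48% and 5.17%. Subcluster 6, with 4 of 8 tip cell markers, held 6, 84 and 36 cells. Subcluster 1 carried 6 of 12 mesenchymal markers, and subcluster 4 had a median of 1866.5 UMIs and was left unnamed.

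TEK was lower at 45 days against none in 5 of the 5 subclusters with at least 10 cells in both libraries, with the interval below 1 in 4. In subcluster 2 it was at 77.4 CPM at 45 days against 149 CPM without induction, and in subcluster 3 at 102 against 316 CPM. Outside subcluster 2 few TEK UMIs stand behind the 45 day values. There were 8 in the 19 cells of subcluster 0 and 3 in the 15 cells of subcluster 1. Subcluster 3 had 8 in 12 cells, and subcluster 4 had 2 in 41 cells. At 15 days against none TEK was lower in 3 of 4 and higher in subcluster 0, at 312 against 231 CPM, with the interval below 1 in 1 and above 1 in subcluster 0. At 45 against 15 days it was lower in 4 of 5, with the interval below 1 in 3. In subcluster 2, the largest in both of those libraries, TEK was at 77.4 against 83.3 CPM, a ratio of 0.928 (0.644 to 1.33). Without subclusters 0, 1 and 4, an alternative chosen after the data were seen, the log2 ratio of TEK was -1.87 at 45 days against none and -1.22 at 15 days against none, against -0.73 with them. TIE1 at 45 days against none was higher in 3 and lower in 2 of 5 subclusters, and each interval spanned 1. Its folds there were 0.913 to 1.86. At 15 days against none TIE1 was higher in 4 of 4, with the interval above 1 in 2. Without subclusters 0, 1 and 4 its log2 ratio at 45 days against none was 0.23 (0.08 to 0.37). PTPRB at 45 days against none was higher in 2 and lower in 3 of 5 subclusters, with the interval below 1 in 2. Its folds there were 0.513 to 3.72, the highest from 4 UMIs against 1 in subcluster 4. At 15 days against none it was higher in 2 and lower in 2 of 4, with the interval above 1 in 1 and below 1 in 2. Without subclusters 0, 1 and 4 the log2 ratio of PTPRB at 45 days against none was -0.42 (-0.65 to -0.20).

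ANGPT2 did not behave alike in the subclusters. At 45 days against none it was 4.29-fold higher (2.38 to 7.55) in subcluster 0, at 181 against 42.2 CPM, and 4.37-fold higher (2.79 to 6.83) in subcluster 1. Few cells stand behind both: in subcluster 0 the 21 UMIs at 45 days came from 5 of 19 cells, at a median depth of 2489 UMIs against 6644.5 without induction, and in subcluster 1 the 41 UMIs came from 9 of 15 cells. In subcluster 2, which held the highest levels without induction and at 15 days, it was at 207, 220.4 and 243 CPM for none, 15 and 45 days, so 45 days against none was 1.18-fold (0.919 to 1.51). In subcluster 3, with 3 UMIs in 12 cells at 45 days, the ratio of 45 days to none was 0.282 (0.0576 to 0.839). Without subclusters 0, 1 and 4 the log2 ratio at 45 days against none was 0.27 (0.01 to 0.52), against 0.77 with them, and without subclusters 1 and 4 it was 0.62. At 15 days against none ANGPT2 was higher in 3 of 4 subclusters, with the interval above 1 in 0. It was lower in subcluster 0, at 16.8 against 42.2 CPM, with the interval below 1. Without subclusters 0, 1 and 4 the log2 ratio at 15 days against none was 0.16 (-0.06 to 0.38), against 0.34 with them. In endothelial-like cells the mesenchymal markers summed to 821, 457 and 718 CPM, with 12 of 12 detected in each library, and the mural markers to 509.9, 613 and 579 CPM. Their part in these levels was not tested.

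**Figure D4:**
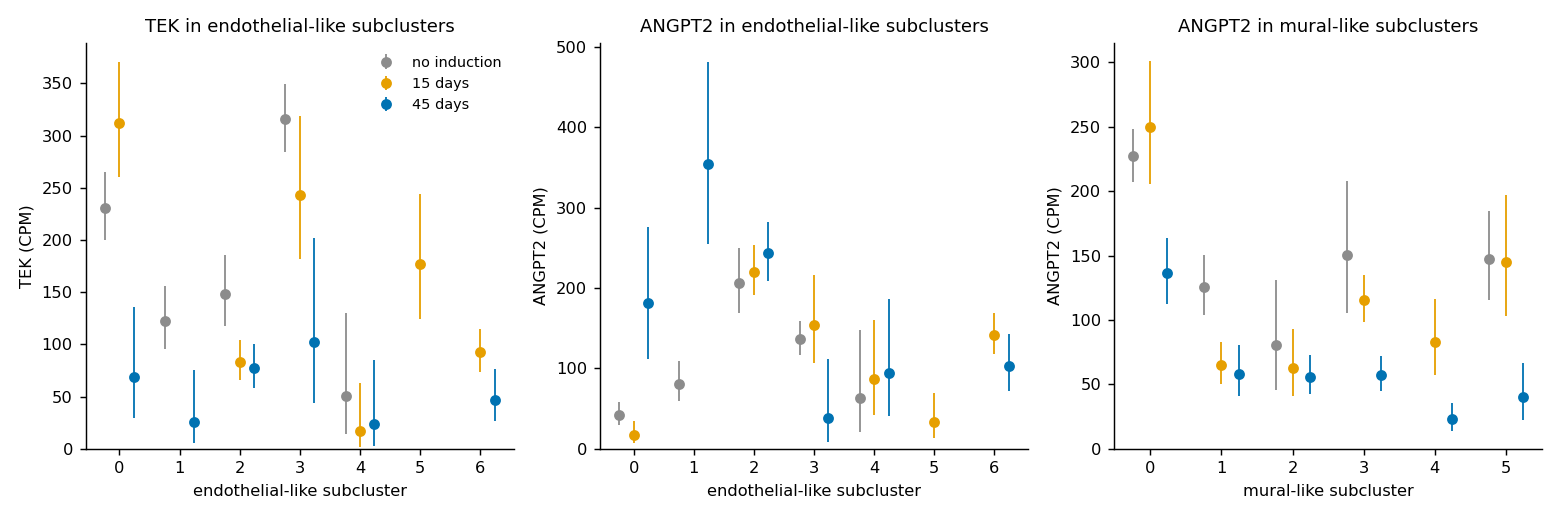
CPM (vertical, from 0) of TEK and ANGPT2 in endothelial-like subclusters and of ANGPT2 in mural-like subclusters (horizontal), for no induction (grey), 15 days (orange) and 45 days (blue), with 95% counting intervals; points need 10 cells. TEK at 45 days lies below the uninduced point in each endothelial-like subcluster with both, and ANGPT2 at 45 days lies above it in endothelial-like subclusters 0 (181 against 42.2 CPM) and 1, and below it in endothelial-like subcluster 3 and in each mural-like subcluster with both.

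Over all cells ANGPT2 was lower relative to ANGPT1 in the libraries labelled 15 and 45 days. Counts of 3′ tags hold 1 tag per transcript and are not scaled by length, and genes can differ in how well their ends are captured, so the ratio is compared between libraries and not read as a ratio of proteins. ANGPT2 UMIs per ANGPT1 UMI were 1.17 (1.10 to 1.24) over all cells with no induction, 0.498 (0.470 to 0.527) after 15 days and 0.455 (0.426 to 0.486) after 45 days. In mural-like cells the ratio was 3.15 (2.71 to 3.67), 1.54 (1.32 to 1.79) and 1.17 (0.988 to 1.38), and in mesenchymal-like cells 0.603, 0.251 and 0.255. In endothelial-like cells, where ANGPT1 had 10 UMIs or fewer, it was 73.0 (31.0 to 226), 38.8 (20.9 to 81.6) and 35.9 (17.96 to 83.9), with overlapping intervals. The ratio was thus lower at 15 and 45 days than without induction in all 3 classes, within the counting error in endothelial-like cells.

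**Figure D5:**
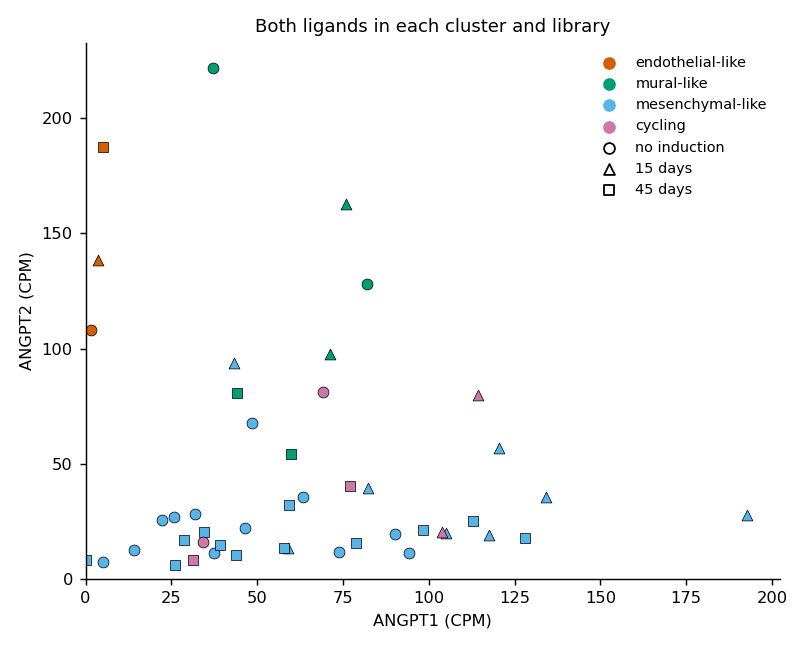
ANGPT1 CPM (horizontal) against ANGPT2 CPM (vertical) in each endothelial-like, mural-like, mesenchymal-like and cycling cluster (colour) of each library (shape), for clusters of at least 20 cells. Endothelial-like points lie along the vertical axis, the mesenchymal-like points have ANGPT1 up to 193 CPM and ANGPT2 up to 93.5 CPM (cluster 12 at 15 days), and the mural-like points have both ligands, with ANGPT2 between 54.2 CPM (cluster 15 at 45 days) and 222 CPM (cluster 13 without induction).

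Thinned to 2000 UMIs, TEK and ANGPT2 were each counted in 10.6% to 37.8% of endothelial-like cells, so few cells could show both. A UMI of both was found in 3.83% (2.16 to 6.23) with no induction, 3.69% (1.86 to 6.51) after 15 days and 2.65% (0.864 to 6.07) after 45 days. The product of the separate shares was 5.88%, 3.99% and 2.97%, within each interval. Of mural-like cells 2.35%, 1.16% and 1.25% had both ligands.

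Over all kept cells, TEK was at 19.4 CPM with no induction, 9.37 CPM after 15 days and 2.49 CPM after 45 days, 7.81-fold lower (6.52 to 9.41) at 45 days against none. That value holds the smaller share of endothelial-like cells at 45 days as well as the lower level in them. TIE1 was at 31.8, 36.7 and 16.7 CPM and PTPRB at 15.4, 13.1 and 5.25 CPM. With scaling by the median of ratios TIE1 over all cells at 15 days against none had a log2 ratio of -0.05, against 0.18 by CPM. ANGPT1 was at 35.1, 80.9 and 53.8 CPM, and ANGPT2 at 41.0, 40.3 and 24.5 CPM.

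Of 24 further genes of the pathway, 19 reached 10 CPM in endothelial-like cells, and ANGPT4 had 0 UMIs there. At 45 days against none 1 of 19 was at least 2-fold lower and 0 higher, at 15 days against none 0 and 0, and at 45 against 15 days 1 and 0. The median log2 ratio at 45 days against none was -0.02 against 0.05 for all genes. The gene was KLF2 each time, a shear-response transcription factor of quiescent endothelium, at 287 CPM with no induction, 229 CPM after 15 days and 77.2 CPM after 45 days. Members of the phosphoinositide kinase arm that TEK signals through stayed under that size: PIK3R1 was 1.69-fold higher (1.36 to 2.12) at 45 days against none, while AKT1 was at 98.8 against 91.2 CPM. FOXO1, the transcription factor that this arm keeps out of the nucleus and that drives ANGPT2, was at 86.3 against 82.0 CPM. ITGB1 and ITGA5, integrin subunits that angiopoietins can bind, were at 857 against 745 CPM and 380.0 against 393 CPM, and the adaptor SHC1 was at 221 against 248 CPM. In mural-like cells 0 of 16 listed genes were 2-fold lower at 45 days against none, and in mesenchymal-like cells 0 of 18 were 2-fold higher at 15 days against none.

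The genes most like each of the 5 were taken by Pearson correlation of log2 CPM over 22 sums of 8 classes and 3 libraries, among 11448 genes. The sums share libraries and cell classes, so the values describe likeness only. ANGPT1 was most like ISLR (0.98), then PDE1A and PLEKHH2. ANGPT2 was most like LAMA4 (0.95), a laminin chain of vascular basement membrane, then ITGA1 and NEURL1B. TEK was most like MMRN1 (0.99), EFCC1 and KDR. TIE1 was most like PRND, ROBO4 and FLT4, and PTPRB most like ROBO4, CXorf36 and FAM124B. Among the 5, TIE1 and PTPRB were at 0.99, TEK was at 0.97 with each of them, and ANGPT1 and ANGPT2 were at 0.41.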

How the data were processed

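Libraries of single cells used 10x Genomics 3′ v3 chemistry, per the labels' protocols, from 5 to 6 pooled organoids a group. The deposited values are counts of UMIs per gene and barcode, not normalized; per the submitters' processing notes they were made with Cell Ranger 3.0.0 on GRCh38, and the file headers name software version 3.0.1. The counting annotation is not given in the sources used here. Positions are from GENCODE 29 (1-based). Depth was 59879923, 49488425 and 64171327 UMIs for none, 15 and 45 days.

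Cells needed 1000 UMIs, 500 genes and no more than 20% of UMIs from mitochondria. Doublets were removed within a library by simulated neighbours, at 0.8% of cells per 1000. Cells were normalized to 10000 and clustered together without integration (scanpy 1.11.5, scikit-learn 1.9.0, igraph 0.11.9) from 2000 variable genes less the 5 members, 30 components, 15 neighbours and Leiden resolution 1, which gave 22 clusters. A marker counted at 2-fold above the other cells with a UMI in 10% of cells. A class needed 3 markers and 1 in 3 of its list. Clusters that met no class were compared again with only the endothelial-like, neuron-like, epithelial-like, haematopoietic-like and hepatocyte-like cells. Those that then met the rule for the mesenchymal list were named mesenchymal-like. This second step named clusters 2, 4, 7, 8, 9, 10, 12, 16 and 17. Endothelial-like and mural-like cells were clustered again with 20 components at resolution 0.5.

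UMIs were summed per class and library and divided by all UMIs of those cells (CPM). Log2 ratios add 5 CPM to each side and use genes at 10 CPM or more in either library; folds printed as such are plain. Sums carry exact Poisson, shares exact Clopper-Pearson and folds exact conditional binomial 95% intervals, for counting error only. A share of 0 carries the limit of 3 cells of the total instead. With 1 library per group there is no test. The 24 pathway genes, the marker lists and the 5 members were chosen with earlier results of these data known. Genes named beyond the members are the 10 highest of the pathway list in endothelial-like cells, any at least 2-fold apart, and the 3 most alike to each member. The steps were tested on simulated data, and 15 other settings were tried.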

Additional observations from a re-analysis of the deposited data

Results flagged for a closer look

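ANGPT2 differed from the uninduced library in opposite directions in different cell classes, and the difference between classes was not tested, since each group is 1 library. At 45 days against none its log2 ratio was 0.77 in endothelial-like and -1.44 in mural-like cells, a gap of 2.21. Against mesenchymal-like cells (-0.38) the gap was 1.15. At 15 days against none the gap was 1.02 between endothelial-like (0.34) and mural-like cells (-0.67), and -1.02 between mural-like and mesenchymal-like cells (0.35). At 45 against 15 days it was 1.19 between endothelial-like (0.42) and mural-like cells (-0.77), and 1.16 between endothelial-like and mesenchymal-like cells (-0.73). The endothelial-like value at 45 days against none was 0.27 without subclusters 0, 1 and 4. With the same cells left out it was 0.16 (-0.06 to 0.38) at 15 days against none and 0.11 (-0.13 to 0.35) at 45 against 15 days. In mural-like subclusters ANGPT2 was lower at 15 days against none in 4 of 5, with the interval below 1 in 1.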

How the results depend on the processing

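No paired analysis was possible because each group has 1 library. TEK at 45 days against none in endothelial-like cells had log2 ratios of -1.94 to -1.65 over 10 alternatives. TEK was at least 2-fold lower at 45 against 15 days in the main setting; with doublets kept, and without subclusters 1 and 4 or 0, 1 and 4, the count of genes at that size was 0, and at 15 days against none it was 1 without subclusters 0, 1 and 4. With those 3 left out, ANGPT2 at 45 days against none in endothelial-like cells was 0.27 and TEK at 15 days against none -1.22. ANGPT2 in mural-like cells at 45 days against none was -1.26 with at least 2000 UMIs, -1.20 with the members among the variable genes and -1.24 with classes from markers per cell. The last setting gave PTPRB -0.54 and TIE1 0.0186 in endothelial-like cells at 45 days against none. ANGPT1 in mesenchymal-like cells at 15 days against none was 1.37 under median of ratios scaling, which shifted mural-like and mesenchymal-like ratios against none by -0.21 to -0.17. Among differences whose interval excluded 0, signs turned for ANGPT1 in mural-like cells at 15 days against none (-0.075 with at least 2000 UMIs, -0.14 with members kept), for ANGPT2 in mesenchymal-like cells (-0.0278 and -0.0015) and for TIE1 over all cells (-0.0537 under median of ratios). Signs also changed for a pair whose interval spanned 0: ANGPT1 in mural-like cells at 45 days against none (-0.07, range -0.41 to 0.07) and in endothelial-like cells at 45 against 15 days (0.26, range -0.28 to 0.45). The causes were not tested.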
